A study of Mus musculus with 16 samples.

Results

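Loss of SPEN was examined at the end of a monolayer differentiation of mouse embryonic stem cells (ESCs) in which Xist had been switched on with doxycycline. The comparison was between 2 Spen-/- and 2 Wt libraries taken at day 7 with doxycycline, 4 of the 16 libraries and 2 of the 8 conditions of the series, and it was made over every gene in the count files. Of 55421 annotated genes per file, 18150 passed the filter on low counts and were tested. Both genotypes were female F1 hybrid ESCs from a 129/Sv by Cast/Ei cross, which carry sequence differences that assign reads to a parent allele, and an endogenous Xist gene on the Cast X chromosome that doxycycline induces. The Spen-/- cells had the Spen open reading frame cut at its 5′ and 3′ ends and a puromycin resistance cassette put in its place. The study's supplement describes the 2 libraries of a condition as biological replicates. The methods do not say how many Spen-/- clones gave the RNA-seq libraries, and nothing in the labels says whether replicates 1 and 2 were separate cultures. The tests therefore measure spread between libraries. The main fit takes that spread from all 16 libraries and not from these 4 alone. It therefore does not measure the wider spread of the Spen-/- day 7 pair, given below, on its own.

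All 4 libraries shared the same handling. ESCs were grown on male feeder cells with serum and LIF, the cytokine that sustains self-renewal, received 2 µg/mL doxycycline for 4 days before differentiation and throughout it, and were plated to remove feeders before serum medium without LIF was given for 7 days. Cells positive for dsRed, described as upregulating Xist from the desired allele, were then sorted, so neither genotype was measured as an unselected culture. The day 0 libraries with doxycycline, 2 for each genotype, serve below as the starting point. No source says that they came from the cultures that gave the day 7 libraries.

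In female mammalian cells Xist RNA coats the X chromosome from which it is transcribed, and SPEN, a large RNA-binding protein, joins the corepressors that silence genes there. ESCs in serum hold a network of naive pluripotency factors together with partly demethylated promoters of germline genes, and normally shut both down as they differentiate. Without LIF, cells in serum then pass through an epiblast-like state toward primitive streak, mesoderm, endoderm and simple epithelium.

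The Spen-/- day 7 libraries were of lower complexity than the others, and this bears on every gene called lower. They held 8243191 and 9788428 reads on genes, against 11019227 and 10719664 in Wt, but detected 15324 and 14969 genes, where the other 14 libraries detected between 16952 and 23458. The 100 most abundant genes took 21.6% and 21.2% of their reads, against 15.8% to 19.6% elsewhere, and mitochondrial transcripts took 4.81% and 2.45%, against 0.613% to 1.86%. The log2 CPM values of the 2 replicates correlated at 0.873 across genes, the lowest of the 8 conditions, where the others ran from 0.918 to 0.976 (genes are not independent replicates, and CPM are counts per 1000000 reads after TMM scaling, a correction for library composition). Since both libraries of this genotype and day were affected, low complexity and genotype cannot be told apart at day 7.

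How often a gene went missing depended on its level. Of genes at 1 to 5 CPM in Wt day 7 cells, 32.4% had no read in either Spen-/- day 7 library, and of those at 5 to 20 CPM 9.75% had none. At 20 to 50 CPM it was 1.85%, at 50 to 100 CPM 0.553%, and at 100 CPM or more 3 of 2428 genes, 0.124%. The Spen-/- day 0 libraries with doxycycline, set against the same bins, ran at 20.4%, 4.51%, 0.674%, 0.302% and 0.0412%. A zero in the Spen-/- day 7 libraries was therefore common for weak genes and rare for genes above 50 CPM, and the Wt level is given beside each zero below.

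**Figure D1:**
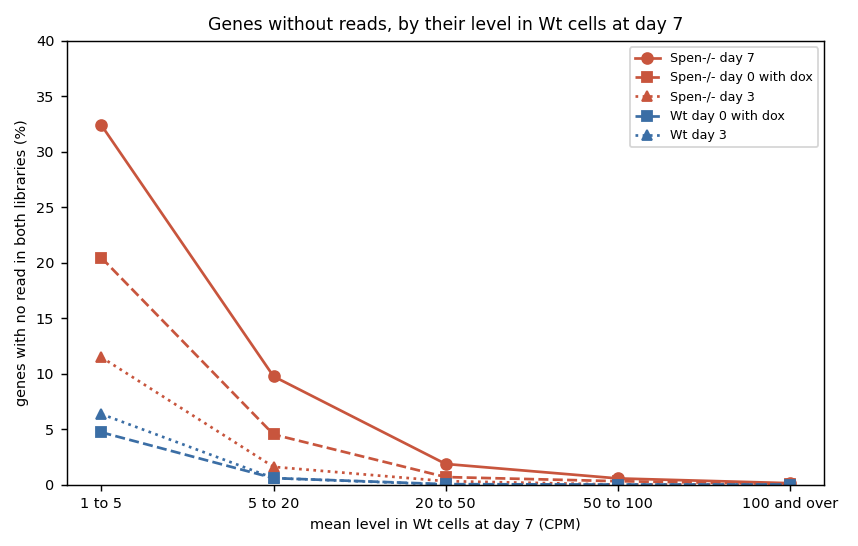
Share of genes, in percent, without a read in both libraries of a condition (y axis) for 5 bins of the gene's mean level in Wt day 7 cells in CPM (x axis), with a line for each condition. The Spen-/- day 7 line starts at 32.4% in the lowest bin and ends at 0.124% in the highest, above the lines of both day 0 groups.

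The targeted gene and the Xist locus were read first as a check of the labels. Spen (ENSMUSG00000040761, mm10 chr4:141467890-141538597) measured 36.6 and 27.7 CPM in Wt day 7 libraries and 0.129 and 0.697 CPM in Spen-/- libraries, 741 against 7 reads, a log2 difference of −6.22 with a standard error (SE) of 1.06 and an adjusted p of 0.00416 (edgeR quasi-likelihood test, Benjamini-Hochberg over 18150 genes, as for all adjusted p-values on total counts). Xist (ENSMUSG00000086503, chrX:103460366-103483254), the noncoding RNA of the inactive X, measured 995 and 741 CPM in Wt cells and 199 and 75.1 CPM in Spen-/- cells, lower by 2.66 on the log2 scale (SE 0.50, adjusted p = 0.00704), in cells that had been sorted for dsRed in both genotypes. Tsix, transcribed antisense across Xist, measured 3.03 and 3.08 CPM in Wt and 20.4 and 18.1 CPM in Spen-/- cells, which did not pass the threshold (log2 difference 2.65, SE 0.76, adjusted p = 0.0578). Whether the counting used strand is not given in the sources used here, so reads of Xist and Tsix where they overlap cannot be separated. In the list of Spen and the X inactivation centre 1 of 9 genes was higher and 2 lower. Rlim, an X-linked ubiquitin ligase gene that activates Xist, stood at 452 and 393 CPM in Wt and 1163 and 1198 CPM in Spen-/- cells, higher by 1.48 (SE 0.19, adjusted p = 6.52e-04).

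Markers of the ESC state gave different answers for the Spen-/- cells at day 7. Pou5f1, the core pluripotency factor OCT4, measured 459 and 390.4 CPM in Wt and 342 and 388 CPM in Spen-/- cells at day 0, and 52.9 and 48.1 against 29.7 and 19.8 CPM at day 7, so it was low in both. Zfp42, the ESC marker REX1, was at 18.9 and 18.9 CPM in Wt day 7 cells and 323 and 293 CPM in Spen-/- cells. Of the lineage markers, Gata6 of endoderm stood at 5.72 and 4.26 against 5.79 and 4.42 CPM, and its log2 difference of 0.03 (SE 1.59, adjusted p = 1) has an SE too wide to place it. Sox1, Afp, Ttr, Hbb-bh1 and Tpbpa, defining genes of neural, hepatic endoderm, blood and trophoblast cells, were under the filter on low counts.

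Across the genome 563 genes were higher in Spen-/- cells at day 7, 3.10% of those tested, and 728 were lower, 4.01%, with 4270 genes at an unadjusted p under 0.05. With limma and sample quality weights, which let a library of lower quality vary more, 586 genes were higher (3.23%) and 297 lower (1.64%), and the Spen-/- day 7 libraries received the smallest weights of all, 0.465 and 0.485, against 1.83 and 1.86 for Wt day 7. Of the genes edgeR called higher, 460 were shared, 81.7% of 563 and 78.5% of 586. Of those it called lower, 239 were shared, 32.8% of 728 and 80.5% of 297. The lower calls held 322 genes without a single read in either Spen-/- library, 44.2% of 728. The median Wt level of all 728 was 19.6 CPM. By comparison, 47 of the 563 higher calls, 8.35%, had no read in Wt. At day 0 with doxycycline edgeR called 10 genes higher in Spen-/- cells and 5 lower (0.0551% and 0.0275%).

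The number of calls also rested on single libraries. Without Wt replicate 1 or 2 the higher calls numbered 207 or 255 and the lower calls 334 or 389, and without Spen-/- replicate 1 or 2 they numbered 605 or 540 and 1089 or 1063. Of the 124 called genes tracked through the alternatives, 59 stayed called in each alternative that tested them, other than a fit of the 4 day 7 libraries on their own, in which none of the 124 was called. Only some members of that set are named below as stable, so a gene without that word did not necessarily lose its call. Mael, Hormad1 and Stk31, for example, belong to the set without being marked. Each called gene outside the set lost its call under at least 1 of those alternatives.

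**Figure D2:**
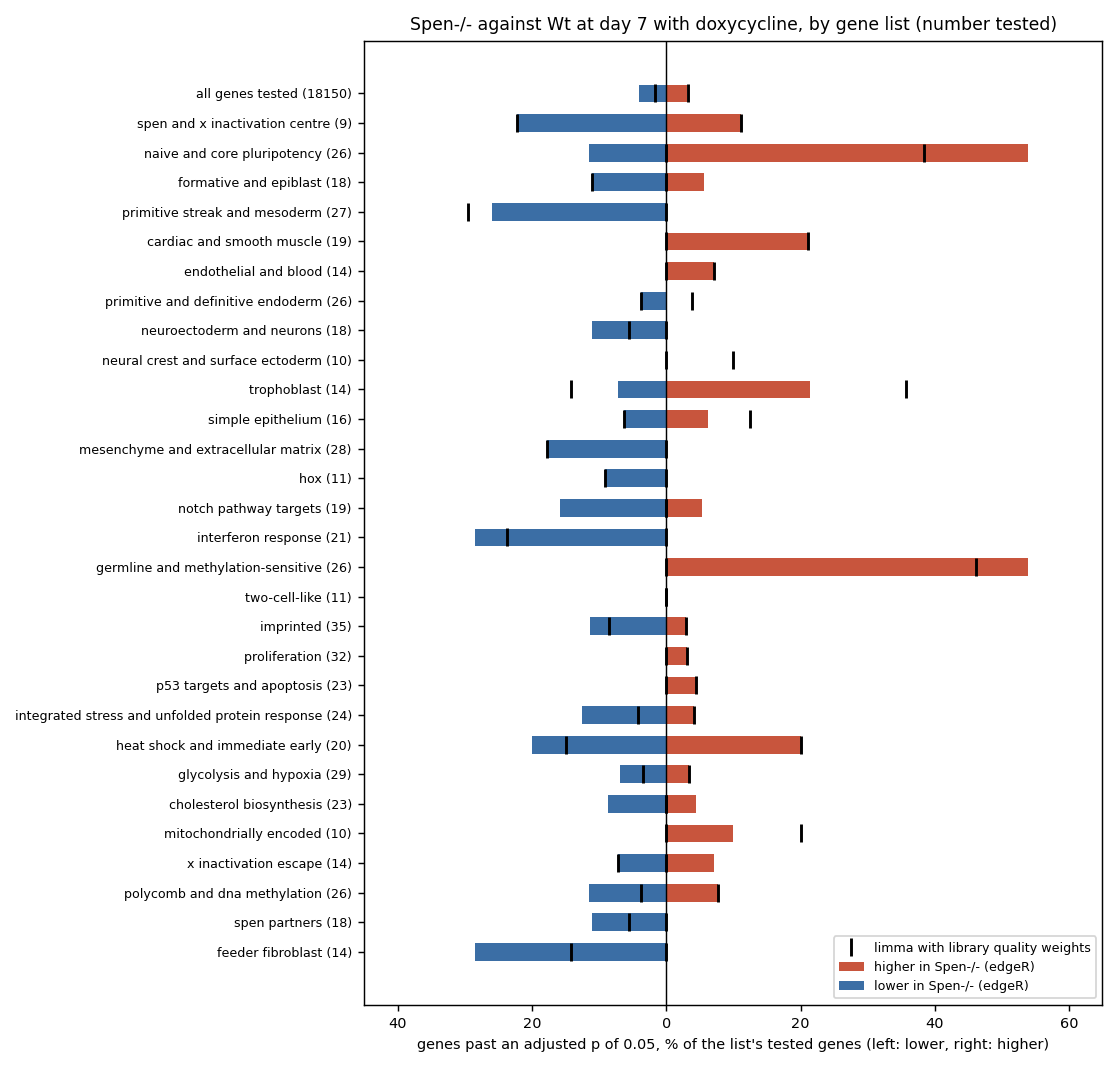
Percent of each list's tested genes that edgeR called higher (right, red) or lower (left, blue) in Spen-/- than in Wt day 7 cells, for lists with at least 9 tested genes, with black ticks for limma with quality weights. The naive pluripotency and germline lists reach 14 of 26 genes higher each, and the primitive streak, interferon and mesenchyme lists hold lower calls without a higher one.

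Naive pluripotency genes were the first group that stayed on. Of 26 tested, 14 were higher in Spen-/- cells and 3 lower, where 3.10% and 4.01% of all genes were, and the median log2 difference of the list was 1.67, where that of all genes was −0.14. Summed over the list, Wt cells went from 6597 and 8372 CPM at day 0 to 1337 and 1524 CPM at day 7, and Spen-/- cells from 9962 and 10588 CPM to 5339 and 6144 CPM. The Spen-/- sum at day 7 was thus below its own start in both libraries but above both Wt day 7 libraries. In bulk RNA, more cells that keep a programme and more of its RNA per cell cannot be told apart, and the same holds for every loss below.

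Zfp42 (ENSMUSG00000051176, chr8:43295063-43306980) showed this with little spread. It was at 361 and 477 CPM in Wt and 519 and 547 CPM in Spen-/- cells at day 0, and the day 7 difference was 4.02 on the log2 scale (SE 0.23, adjusted p = 5.90e-06). Dppa5a, a small RNA-binding protein gene of ESCs with near-identical copies that can share reads, measured 35.4 and 44.2 CPM in Wt and 2129 and 1958 CPM in Spen-/- day 7 cells (log2 difference 5.68, SE 0.37, adjusted p = 1.40e-05). Fgf4, the growth factor that pushes ESCs toward lineage commitment, measured 2.86 and 3.35 against 157 and 436 CPM (6.57, SE 0.71, adjusted p = 2.37e-04), and at day 0 it had been 111 and 204 CPM in Wt and 210.3 and 169.6 CPM in Spen-/- cells. In each of these genes the lower Spen-/- library lay many fold above the higher Wt library.

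Dppa2 and Dppa4, whose products work as a pair at the promoters of developmental genes, moved the same way. Dppa2 was at 0.084 and 0.453 CPM in Wt and 38.3 and 66.5 CPM in Spen-/- cells (log2 difference 7.57, SE 0.54, adjusted p = 1.61e-05), and Dppa4 at 11.8 and 13.2 against 145 and 167 CPM (3.64, SE 0.28, adjusted p = 2.48e-05). Tcl1, a cofactor of AKT signalling, was at 1.35 and 2.08 against 101 and 171 CPM, Nr0b1, the X-linked nuclear receptor DAX1, at 0.589 and 3.81 against 32.9 and 66.3 CPM, and Utf1, a chromatin-associated ESC factor, at 80.4 and 79.3 against 393 and 425 CPM. Tfcp2l1, a transcription factor of the naive network, was at 14.5 and 8.52 against 46.7 and 123 CPM, and L1td1, an RNA-binding protein gene, at 41.0 and 28.7 against 100.4 and 117 CPM. These 7 genes, with Zfp42, Dppa5a and Fgf4, are the stable members of the list.

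The core of the network was less clearly separated. Nanog was at 41.8 and 54.1 CPM in Wt and 137 and 174 CPM in Spen-/- cells (log2 difference 1.70, SE 0.32, adjusted p = 0.00748). Sox2 was at 12.4 and 5.80 against 25.8 and 47.1 CPM, Esrrb at 5.98 and 5.26 against 29.1 and 22.2 CPM and Dppa3 at 11.2 and 12.1 against 30.5 and 37.4 CPM. All 4 lost the call with quality weights, and Sox2 and Dppa3 also lost it without either Wt library. Pou5f1 (log2 difference −1.03, SE 0.28, adjusted p = 0.0465), Lin28a, a repressor of let-7 miRNAs (79.6 and 69.0 against 31.0 and 32.5 CPM, −1.23, adjusted p = 0.00704) and Prdm14, a repressor of the epiblast state (9.76 and 9.33 against 0 and 1.05 CPM) were lower, and none of the 3 was called with quality weights. Sall4, Tdgf1, Klf5 and Mybl2, the most abundant members that were not called, had log2 differences of 0.92, 0.41, 0.72 and 0.57.

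**Figure D3:**
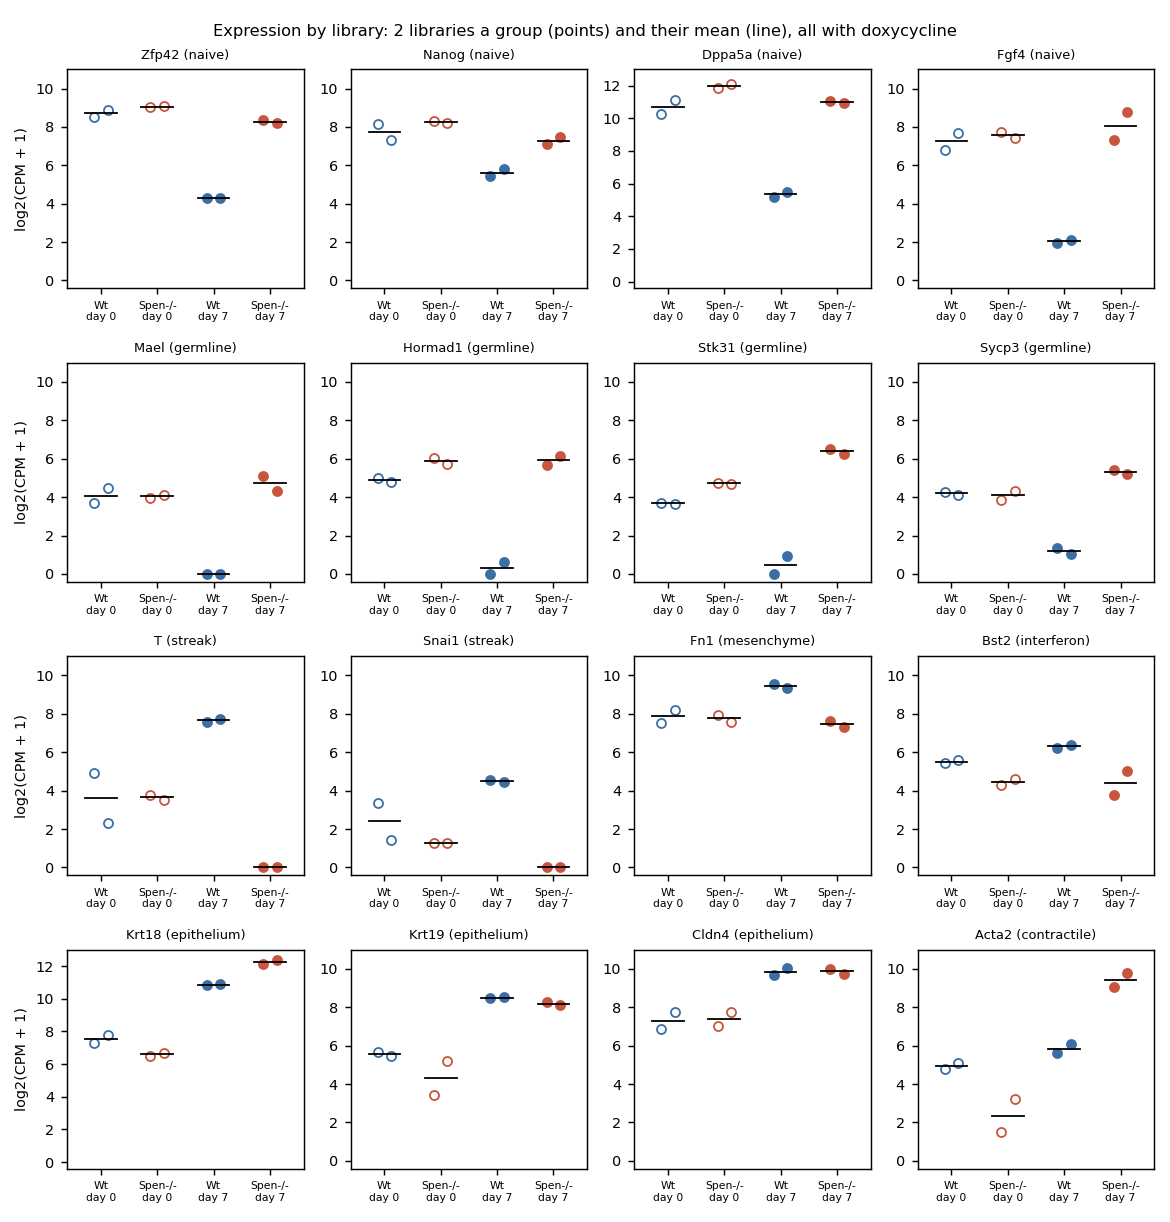
Level of 16 genes in every library with doxycycline, as log2 of CPM plus 1 (y axis), with open points for day 0, filled points for day 7 and a line at the mean of the 2 replicates. In the panels of Zfp42, Dppa5a, Fgf4, Mael, Hormad1, Stk31 and Sycp3 the Wt day 7 points lie far below the other 3 groups, and in those of T and Snai1 the Spen-/- day 7 points lie at 0.

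Germline genes formed the second group. The list holds genes of meiosis, piRNA biology and germ cell identity, many with promoters that DNA methylation silences in somatic cells, and 14 of its 26 tested members were higher in Spen-/- day 7 cells and 0 lower (12 higher and 0 lower with quality weights, and between 11 and 14 higher with 1 library left out). Over all genes 3.10% were higher and 4.01% lower with edgeR. The germline list summed to 398 and 516 CPM in Wt and 1415 and 1603 CPM in Spen-/- cells at day 0, and to 33.0 and 37.5 CPM against 1227 and 1612 CPM at day 7. The X-linked gene Rhox5, given below, made up most of the Spen-/- sums on both days. The median log2 difference was 4.97, and 5.12 with genes that had no read in 1 genotype set at their bound. A bound takes the zero group at 3 reads over both libraries, which is 0.183 CPM in Spen-/- and 0.131 CPM in Wt day 7 cells, and it covers counting error only.

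Mael (ENSMUSG00000040629, chr1:166201201-166238747), a component of the piRNA pathway that represses transposons, measured 11.9 and 21.1 CPM in Wt and 14.8 and 16.4 CPM in Spen-/- cells at day 0. At day 7 it had no read in either Wt library and 33.4 and 19.1 CPM in the Spen-/- libraries, at least 200.5-fold higher (adjusted p = 1.71e-04). Hormad1, a protein of the meiotic chromosome axis, was at 0 and 0.544 CPM in Wt and 50.1 and 70.7 CPM in Spen-/- cells (log2 difference 7.77, SE 0.77, adjusted p = 1.39e-04), and Stk31, a germ cell kinase gene, at 0 and 0.906 against 90.8 and 74.9 CPM (7.50, SE 1.04, adjusted p = 0.00125). Wt cells had held both at day 0, at 30.6 and 26.7 CPM and at 12.1 and 11.4 CPM. Sycp3 of the synaptonemal complex, which joins homologous chromosomes in meiosis, was at 1.52 and 1.09 against 41.7 and 36.3 CPM (4.89, SE 0.54, adjusted p = 2.46e-04).

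The rest of the called germline genes included 3 more of the synaptonemal complex. Sycp2 had no read in Wt and 17.6 and 18.4 CPM in Spen-/- cells (at least 137-fold higher), Sycp1 was at 2.69 and 0.997 against 10.8 and 32.3 CPM, and Syce1 at 0.673 and 0 against 20.6 and 13.8 CPM. Ddx4, the RNA helicase VASA of germ cells, was at 0.337 and 0.997 against 50.0 and 11.5 CPM, Tuba3a, a testis tubulin with close paralogs, at 0 and 0.725 against 12.6 and 27.6 CPM, and Dazl, a germ cell RNA-binding protein, at 0 and 0 against 8.87 and 0.697 CPM. Dazl and Sycp1 lost the call with quality weights, and Sycp2 kept it there but lost it without either Wt library. Rpl10l, a testis copy of a ribosomal protein gene that can share reads with its paralogs, had no read in Wt and 30.3 and 19.1 CPM in Spen-/- cells (at least 189-fold higher, adjusted p = 3.80e-05).

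The other 3 of the 14 lie on the X chromosome, where 14.8% of tested genes were higher. Tex11, which meiotic recombination needs, had no read in Wt and 12.7 and 29.6 CPM in Spen-/- cells (at least 162-fold higher, adjusted p = 1.66e-04), and Taf7l, a testis form of a general transcription factor subunit, was at 1.18 and 0.906 against 48.6 and 21.5 CPM. Rhox5, a homeobox gene of the reproductive tract and placenta, was at 15.6 and 17.9 against 759.7 and 1191 CPM (log2 difference 5.87, SE 0.42, adjusted p = 1.61e-05), and Spen-/- cells had carried it high at day 0 as well, 979 and 1072 against 103 and 184 CPM. Among members that were not called, Stag3, Hormad2 and Piwil2 had Spen-/- values of 19.3 and 8.02, 5.66 and 16.3, and 8.10 and 6.63 CPM over Wt values of 3.87 and 2.27, 0.758 and 5.17, and 1.18 and 0.634 CPM. D1Pas1, chosen here after its values were seen, was at 30.3 and 25.1 CPM in Wt and 19.2 and 33.3 CPM in Spen-/- cells at day 0 and at 0 and 0.181 against 0 and 0 CPM at day 7, so the list did not move as one.

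Promoter sequence is shown for Mael, Hormad1 and Stk31, 3 autosomal genes near 0 in Wt day 7 cells chosen after their values were seen, because many promoters of the list are known to be silenced by methylation of CpG dinucleotides. Each runs from 250 bases before to 50 bases after the transcript start in RefSeq (GRCm38.p6), written 5′ to 3′ on the strand of the gene, with capitals for CACGTG (the E-box bound by factors such as MYC and MAX, its own reverse complement) and GCGGGAA or its reverse complement TTCCCGC (the E2F6-type element). Mael is at chr1:166238695-166238994 on the minus strand, Hormad1 at chr3:95559427-95559726 on the plus strand and Stk31 at chr6:49395289-49395588 on the plus strand.
Mael: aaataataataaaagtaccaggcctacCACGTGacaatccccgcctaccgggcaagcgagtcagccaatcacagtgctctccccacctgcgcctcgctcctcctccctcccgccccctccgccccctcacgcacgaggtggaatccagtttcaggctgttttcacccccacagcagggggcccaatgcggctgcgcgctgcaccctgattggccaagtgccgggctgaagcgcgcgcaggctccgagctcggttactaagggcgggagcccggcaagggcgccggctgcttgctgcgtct
Hormad1: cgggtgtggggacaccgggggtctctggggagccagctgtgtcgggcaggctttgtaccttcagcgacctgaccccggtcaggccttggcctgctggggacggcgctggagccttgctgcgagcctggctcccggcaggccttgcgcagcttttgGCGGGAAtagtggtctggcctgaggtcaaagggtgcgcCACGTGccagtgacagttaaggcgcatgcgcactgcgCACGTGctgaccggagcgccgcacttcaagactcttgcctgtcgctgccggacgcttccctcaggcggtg
Stk31: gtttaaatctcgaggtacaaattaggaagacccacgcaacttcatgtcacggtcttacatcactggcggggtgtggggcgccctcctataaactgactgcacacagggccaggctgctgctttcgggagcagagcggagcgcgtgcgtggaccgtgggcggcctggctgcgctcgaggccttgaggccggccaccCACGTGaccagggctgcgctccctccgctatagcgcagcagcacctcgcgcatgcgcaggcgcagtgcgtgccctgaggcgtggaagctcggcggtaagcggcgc
All 3 hold CACGTG, and Hormad1 holds it at 2 places together with the other motif. RefSeq matched 24 of the 26 tested genes with 30 promoters, whose median was 20.5 CpG per 300 bases, against 7 over all 32851 promoters of that table. CACGTG was in 17 of the 30, 56.7%, against 7.15% of all promoters, and GCGGGAA in 8, 26.7%, against 4.60%. Within the list CACGTG was in 9 of the 15 promoters of called genes and 8 of the 15 promoters of the others, so its presence did not follow the calls, and GCGGGAA was in 6 and 2. These promoters belong to 13 called and 11 other genes. Hormad1, Stk31, Fkbp6 and Tdrd1 have overlapping windows, so some sites, such as the GCGGGAA of Hormad1, are counted more than once. A match is a description of letters in this window and not a bound site.

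Outside the list, the genes with the largest higher calls included further germ cell genes. Sohlh2, a transcription factor of early germ cell differentiation, was at 0.253 and 0 CPM in Wt and 123 and 137 CPM in Spen-/- cells (log2 difference 9.83, SE 0.64, adjusted p = 1.40e-05). Rec114, which meiotic DNA break formation needs, was at 0.084 and 0 against 23.1 and 31.5 CPM (8.93, SE 0.98, adjusted p = 2.41e-04), and Nlrp4f, of an oocyte-expressed family with close paralogs, at 0.842 and 0 against 55.4 and 27.7 CPM (6.57, SE 1.37, adjusted p = 0.0128, lost without Wt replicate 2). The noncoding RNA Platr3 was at 0.168 and 0.272 against 23.1 and 24.5 CPM. Slc28a1, a nucleoside transporter gene, was at 0 and 0 against 2.31 and 60.3 CPM (at least 239-fold higher over both libraries), with most of its reads in 1 Spen-/- library.

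DNA methylation and Polycomb genes were mixed, with 2 of 26 higher and 3 lower, where 3.10% and 4.01% of all genes were. Dnmt3l (ENSMUSG00000000730, chr10:78041947-78063622), the cofactor of the de novo DNA methyltransferases, was at 1.26 and 3.17 CPM in Wt and 114 and 128 CPM in Spen-/- cells (log2 difference 5.77, SE 0.49, adjusted p = 5.03e-05), after 186 and 235 and 288 and 161 CPM at day 0. Eed, the Polycomb subunit that reads H3K27me3, was higher at 366 and 448 against 123 and 171 CPM (1.47, adjusted p = 0.00492). Dnmt1, the maintenance methyltransferase, was lower at 71.7 and 76.1 against 230.1 and 162 CPM (−1.41, SE 0.25, adjusted p = 0.00508), as were the Polycomb genes Phf19 (2.19 and 4.65 against 32.5 and 32.4 CPM) and Ezh1. The Phf19 and Ezh1 calls were lost with quality weights, and the Dnmt1 and Eed calls were lost without Wt replicate 1. The PRC2 cofactor genes Mtf2 and Jarid2 were not called, at 205 and 225 against 234 and 302 CPM and at 136 and 127 against 157 and 239.8 CPM.

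The formative and epiblast list, genes that come on as naive cells exit, had 1 of 18 higher and 2 lower, where 3.10% and 4.01% of all genes were. Lefty2, a NODAL antagonist, was at 109 and 134 against 103 and 125 CPM, and Dnmt3b at 112 and 93.8 against 89.7 and 113 CPM, after 811 and 573 and 444 and 263 CPM at day 0. Fgf5, the classical epiblast marker, was at 65.9 and 74.5 against 45.9 and 37.2 CPM (adjusted p = 0.122). Lef1, the nuclear effector of WNT signalling, was lower at 6.04 and 19.8 against 115 and 129 CPM (log2 difference −3.24, SE 0.48, adjusted p = 0.00203), and so was Dusp6, a target and brake of FGF-ERK signalling, at 31.0 and 66.8 against 188 and 217 CPM (−2.05, SE 0.38, adjusted p = 0.00677). Both are stable, whereas the single higher call, Fgf15 at 12 and 22.7 against 3.28 and 3.63 CPM, was lost with quality weights. Naive genes were thus high while most formative genes were not called either way.

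Primitive streak and mesoderm genes were mostly without reads in Spen-/- day 7 cells. Of 27 tested, 7 were lower and 0 higher (8 lower with quality weights, between 3 and 8 with 1 library left out), and 19 had no read in either Spen-/- day 7 library, where 19.1% of all tested genes had none. At day 0 with doxycycline 11 of the 27 already had no read in either Spen-/- library, and 4 had none in either Wt library. The 19.1% is not matched for Wt level or for the groups through which genes passed the filter. The count of zeros is thus no test of a loss. Over all genes 4.01% were called lower and 3.10% higher. The summed level was 741 and 786 CPM in Wt and 55.7 and 69.6 CPM in Spen-/- day 7 cells, after 252 and 105 and 170 and 172 CPM at day 0.

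T (ENSMUSG00000062327, chr17:8434423-8442496), the streak factor brachyury, measured 29.1 and 3.89 CPM in Wt and 12.6 and 10.5 CPM in Spen-/- cells at day 0. At day 7 it was at 192 and 211 CPM in Wt cells and had no read in either Spen-/- library. The gene was thus at least 1101-fold lower (adjusted p = 3.12e-04). At 100 CPM or more in Wt, the 3 of 2428 genes without a Spen-/- read were T, Usp18 and Aplnr. All are named here for their large differences, so that share is no separate yardstick for T. Fgf8, the streak growth factor, was at 121 and 111 against 6.04 and 0 CPM (log2 difference −5.28, SE 1.20, adjusted p = 0.0199), Snai1, the repressor of E-cadherin, at 22.3 and 20.5 against 0 and 0 CPM (at least 117-fold lower), and Meox1 of somites at 53.1 and 26.3 against 0 and 0 CPM (at least 217-fold lower). Gsc of the organizer, Mesp2 of segmenting mesoderm and Twist1 of mesenchyme stood at 7.66 and 6.07, 5.13 and 7.07, and 3.79 and 1.18 CPM in Wt and at 0 in Spen-/- cells. At Wt levels of 5 to 20 CPM 9.75% of all genes had no read in Spen-/- cells, and at 1 to 5 CPM 32.4%, so zeros were frequent at the level of these 3 genes.

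T, Snai1 and Gsc are the stable calls. The other 4 were lost without Wt replicate 1, and 3 of them, Fgf8, Mesp2 and Twist1, also with quality weights. Other members were called there instead. Several abundant or defining members did not pass. Lhx1 was at 42.1 and 38.0 against 0 and 0 CPM (adjusted p = 0.0629), Mixl1 at 33.8 and 90.6 against 3.99 and 0 CPM (0.131), Wnt3 at 35.3 and 57.0 against 8.74 and 0 CPM (0.110), Hand1 at 15.7 and 12.8 against 0.643 and 0 CPM (0.0757) and Mesp1 at 12 and 13 against 0 and 0 CPM (0.107). Bmp4, a ligand made by streak and extraembryonic cells, stayed measurable in both, at 92.0 and 82.0 against 31.6 and 48.0 CPM (0.0703).

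Hox genes, which pattern the trunk, were not read in Spen-/- day 7 cells. Of 39 in the files 11 were tested, and all 11 were without reads in both Spen-/- day 7 libraries, where 19.1% of all tested genes were. Of the 11, 8 had no read in the Spen-/- day 0 libraries with doxycycline either. Genes without Spen-/- day 7 reads passed the filter through other libraries, so this count is no test of a loss. Their summed Wt day 7 level was 69.4 and 51.6 CPM, and at 1 to 5 CPM in Wt 32.4% of all genes had no Spen-/- read. The most abundant that was not called, Hoxb1, was at 38.6 and 31.8 CPM in Wt (adjusted p = 0.0670). The Wt sum at day 0 had been 3.61 and 6.09 CPM.

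Mesenchymal and matrix genes had 5 of 28 lower and 0 higher, with the same count with quality weights. Over all genes 4.01% were lower and 3.10% higher with edgeR. Fn1 (ENSMUSG00000026193, chr1:71585520-71653200), fibronectin, was at 186 and 289 CPM in Wt and 246 and 190.1 CPM in Spen-/- cells at day 0 and at 751 and 651 against 197 and 160.2 CPM at day 7 (log2 difference −1.97, SE 0.26, adjusted p = 8.60e-04). Vim, the intermediate filament of mesenchyme, was at 159 and 119 against 14.1 and 5.46 CPM (−3.83, SE 0.45, adjusted p = 4.00e-04). Cdh2, N-cadherin, was at 40.2 and 51.3 against 0 and 0 CPM (at least 249.7-fold lower, adjusted p = 0.00352), and the collagenase gene Mmp2 at 29.2 and 17.4 against 0 and 0 CPM (at least 127-fold lower). These 4 are stable, and Fbln1, at 116 and 102 against 26.7 and 46.8 CPM, was called but lost without either Wt library.

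Other matrix genes of similar abundance were not called, so the list did not fall as a whole. Lgals1, galectin-1, was at 483 and 502 against 683 and 794 CPM, Ccn1 at 264 and 251 against 379 and 427 CPM, Thbs1 at 51.8 and 44.3 against 57.3 and 90.1 CPM, and Col1a1 at 55.5 and 49.9 against 66.9 and 45.9 CPM. Genes that mark feeder fibroblasts moved in the direction of the mesenchymal calls. Of 14 tested, 4 were lower and 0 higher (Fbln2, Loxl1, Mmp2 and Pdgfrb, each under 30 CPM), where 4.01% and 3.10% of all genes were. In Spen-/- day 7 cells 7 had no read in either library, against 19.1% of all tested genes, and 4 had none in Spen-/- cells at day 0. The summed level was 143 and 112 CPM in Wt and 102 and 65.3 CPM in Spen-/- day 7 cells. The Y-linked genes of the male feeders summed to 0 and 0 CPM in Wt and 0 and 0.116 CPM in Spen-/- day 7 cells, and the part of fibroblast RNA in the mesenchymal calls was not tested beyond these values.

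Interferon response genes had 6 of 21 lower and 0 higher, 5 with quality weights, and between 1 and 7 when 1 library was left out. Over all genes 4.01% were lower and 3.10% higher with edgeR. The interferon list summed to 1229 and 1371 CPM in Wt and 349 and 456 CPM in Spen-/- day 7 cells, after 481 and 470.0 CPM and 507 and 544 CPM at day 0. Usp18, which restrains the receptor, was at 107 and 135 against 0 and 0 CPM (at least 662-fold lower, adjusted p = 0.0405), and Ifih1, the RNA sensor MDA5, at 48.2 and 85.7 against 0 and 0 CPM (at least 366-fold lower, 0.0485), but both calls were lost with quality weights and whenever any of the 4 libraries was left out.

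Smaller differences passed for Bst2, which tethers virions (74.8 and 81.3 against 12.9 and 31.2 CPM), Oas1a, which makes oligoadenylate (35.0 and 42.4 against 8.61 and 12 CPM), and Ifitm3, an entry inhibitor (360.3 and 372 against 164 and 235 CPM), and these 3 calls were lost without either Wt library. The sensor gene Ddx58 (RIG-I) was at 64.5 and 59.7 against 79.7 and 72.2 CPM and Trim25, its ubiquitin ligase, at 36 and 26.2 against 36.3 and 48.6 CPM, and these 2 were not called. Rtp4 at 69.4 and 78.3 against 0 and 6.39 CPM and Ifit1 at 52.9 and 76.3 against 0 and 11.5 CPM did not pass. Outside the list, Parp9 (71.6 and 65.5 against 0 and 0 CPM, at least 374-fold lower, adjusted p = 1.61e-05) and Tap2, the peptide transporter of antigen presentation (74.7 and 48.3 against 0 and 0 CPM, at least 336-fold lower, adjusted p = 2.20e-04), are known interferon targets and were among the 12 largest lower calls.

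The remaining large lower calls were all without reads in Spen-/- day 7 cells and above 50 CPM in both Wt libraries. Aplnr, the apelin receptor of early mesoderm, was at 101 and 125 CPM, Rspo3, a WNT amplifier, at 83.1 and 86.2 CPM, and Tmem176b, a membrane protein gene of immune cells, at 76.7 and 87.4 CPM. The arginase gene Arg1 was at 60.3 and 79.8 CPM, the zinc transporter gene Slc39a8 at 71.9 and 55.1 CPM and the sodium pump subunit gene Atp1b2 at 53.3 and 63.0 CPM. The Arg1 and Rspo3 calls were lost whenever any of the 4 libraries was left out, and the Aplnr call without Wt replicate 2. Arrdc4, a glucose-responsive arrestin-domain gene, was at 83.4 and 83.0 CPM in Wt day 7 cells and had been measured in Spen-/- cells at day 0, at 36.1 and 32.1 CPM, and at day 7 it was at least 454-fold lower than in Wt (adjusted p = 1.03e-05).

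Signalling targets were split, beside shares over all genes of 3.10% higher and 4.01% lower. In the Notch list, chosen because SPEN also serves as a corepressor of that pathway's DNA-binding factor, 1 of 19 genes was higher and 3 lower with edgeR and 0 in either direction with quality weights. Hes1, the main target, was at 133 and 89.7 against 20.1 and 29.4 CPM (log2 difference −2.17, SE 0.41, adjusted p = 0.00734), Hey1 at 6.90 and 8.61 against 0 and 0 CPM, the ligand gene Dll1 at 35.7 and 23.4 against 0 and 0 CPM, and Dtx1 higher at 52.7 and 17.4 against 6.31 and 7.07 CPM. Myc, Ccnd1 and Id2 were at 98.2 and 66.3 against 86.7 and 79.9 CPM, 79.9 and 75.2 against 76.5 and 64.3 CPM, and 162 and 157 against 168 and 186 CPM. No member of the list was thus called by both tools.

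Immediate early and heat shock genes were mixed, with 4 of 20 higher and 4 lower, where 3.10% and 4.01% of all genes were. Fos and Jun, the subunits of AP-1, were at 249 and 244 against 23.7 and 52.2 CPM (log2 difference −2.70, SE 0.50, adjusted p = 0.00654) and at 220.4 and 193 against 67.2 and 37.4 CPM (−1.98, SE 0.39, adjusted p = 0.00879). Egr1, a growth factor response gene, was at 53.7 and 34.8 against 0.129 and 0 CPM, lost with quality weights, and Fosb at 8.42 and 11.3 against 0 and 0 CPM. Dusp1 and Klf6, which the same stimuli induce, were higher at 578 and 787 against 251 and 309 CPM and at 560.3 and 587 against 275 and 308 CPM, so immediate early genes did not move together. The chaperone genes Hsp90aa1 (2731 and 3246 against 1374 and 1285 CPM) and Hspa8 (1647 and 2072 against 919 and 1111 CPM) were higher. Of these 8, Fos, Fosb and Hsp90aa1 are stable. Jun, Dusp1, Klf6 and Hspa8 were lost without Wt replicate 1.

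Genes of simple epithelium came on in both genotypes. From day 0 to day 7, 6 of 16 rose in Wt and 7 in Spen-/- cells, where 1.48% and 3.36% of all genes rose. At day 7 1 was higher and 1 lower in Spen-/- than in Wt cells, where 3.10% and 4.01% of all genes were. Cldn4, a tight junction claudin, went from 114 and 215 to 824 and 1042 CPM in Wt and from 132 and 215 to 1036 and 862 CPM in Spen-/- cells, a rise of 2.50 and 2.45 on the log2 scale, and the day 7 difference was 0.02 (SE 0.30). Krt19 went from 50.1 and 42.4 to 361 and 364 CPM and from 9.71 and 35.8 to 311 and 273 CPM. Epcam, at 305 and 333 against 280.3 and 404 CPM, and Cdh1, E-cadherin, at 281 and 213 against 189 and 211 CPM, were not called.

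Krt8 and Krt18, the paired keratins of simple epithelium, rose more in Spen-/- cells. Krt18 was at 155 and 218 CPM in Wt and 90.9 and 101 CPM in Spen-/- cells at day 0 and at 1827 and 1917 against 4411 and 5237 CPM at day 7 (log2 difference 1.37, SE 0.27, adjusted p = 0.0101). Krt8 started at 187 and 153 against 34.8 and 45.4 CPM and reached 1250.5 and 1287 against 1862 and 2259 CPM, where its day 7 difference did not pass (0.70, adjusted p = 0.0813). Both have processed copies elsewhere in the genome with which reads may be shared. Rab25, a trafficking gene of epithelia, was lower, at 1.03 and 0 against 11.7 and 9.52 CPM. It and Krt18 lost the call without either Wt library.

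Genes linked to trophoblast had 3 of 14 higher and 1 lower, where 3.10% and 4.01% of all genes were. The X-linked homeobox genes Rhox6 and Rhox9, near-identical to each other, were at 41.5 and 27.7 against 479.8 and 583 CPM (log2 difference 3.94, SE 0.31, adjusted p = 2.99e-05) and at 31.0 and 21.8 against 383 and 521 CPM (4.10, SE 0.36, adjusted p = 6.27e-05), and Rhox5 is the third. Plac1, X-linked and placental, was at 0 and 0 CPM in Wt and 2.85 and 0 CPM in Spen-/- cells at day 0 and at 56.7 and 37.2 against 370.3 and 541 CPM at day 7 (adjusted p = 0.0920, but called with quality weights). Cdx2, a trophectoderm and posterior mesoderm factor, was at 16.1 and 14.3 against 0 and 0 CPM. This call was lost with any library left out. Gata3, Krt7 and Tfap2c, autosomal and shared with surface epithelium, were at 58.3 and 40.1 against 116 and 146 CPM, 192 and 148 against 177 and 267 CPM, and 107 and 96.8 against 115 and 143 CPM. Gata3 and Krt7 rose from day 0 in both genotypes, and every higher call of the list lies on the X chromosome.

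Contractile genes of smooth muscle were higher in Spen-/- cells, and other muscle genes were not called. Of 19 cardiac and smooth muscle genes 4 were higher and 0 lower, where 3.10% and 4.01% of all genes were. The list's median log2 difference was nevertheless −1.95, 5 members had no read in Spen-/- cells, and DESeq2 called 5 lower. Acta2 (ENSMUSG00000035783, chr19:34241090-34255590), smooth muscle actin, was at 26.2 and 33.1 CPM in Wt and 1.81 and 8.26 CPM in Spen-/- cells at day 0 and at 47.6 and 67.2 against 538 and 885 CPM at day 7 (log2 difference 3.63, SE 0.58, adjusted p = 0.00288). Cnn1 was at 14.5 and 19.3 against 116 and 43.4 CPM, Myl9 at 9.51 and 11.4 against 50.7 and 62.9 CPM and Tagln at 4.38 and 6.80 against 28.4 and 21.3 CPM. Acta2 is stable, and the other 3 were lost without either Wt library.

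In the endothelial and blood list Pecam1 alone of 14 was called, at 4.63 and 3.08 CPM in Wt and 126 and 129 CPM in Spen-/- cells (log2 difference 5.04, SE 0.43, adjusted p = 5.03e-05). ESCs express it too, and it had been at 47.4 and 56.5 CPM in Wt and 30.0 and 64.3 CPM in Spen-/- cells at day 0. The other abundant members did not follow, with Flt1 at 43.1 and 44.3 against 32.4 and 33.6 CPM and Gata2 at 16.8 and 3.53 against 2.96 and 1.39 CPM.

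Endoderm and neural lists had few calls, beside shares over all genes of 3.10% higher and 4.01% lower. Of 26 endoderm genes 1 was lower (Apoa2, at 0.758 and 1.81 against 0 and 0 CPM, lost with quality weights and with any library left out). In Spen-/- day 7 cells 10 of the 26 had no read, where 19.1% of all tested genes had none, and 8 had none in Spen-/- cells at day 0. The basement membrane genes Sparc (266 and 268 against 269 and 362 CPM), Lamb1 (184 and 116 against 84.1 and 99.2 CPM) and Lamc1 (110.1 and 85.8 against 26.4 and 103 CPM) did not pass. Sox17 was at 29.2 and 16.4 against 0 and 5.23 CPM. Of 18 neuroectoderm genes the retinoid-binding Crabp1 (11.5 and 5.17 against 0 and 0 CPM) and the imprinted Nnat (160.3 and 101 against 0 and 3.14 CPM) were lower, both lost with quality weights, and Pax6 and Tubb3 were under 10 CPM in every day 7 library. None of 10 neural crest and surface ectoderm genes was called with edgeR.

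Lists of proliferation and stress had few calls, beside shares over all genes of 3.10% higher and 4.01% lower. Of 32 proliferation genes 1 was called, Ccne1, the cyclin of S phase entry, at 109.9 and 102 against 295 and 342 CPM (log2 difference 1.58, SE 0.27, adjusted p = 0.00416), still under its day 0 level of 608 and 751 and 548 and 714 CPM. The list's median log2 difference was −0.02, near the −0.14 of all genes. Of 23 p53 targets 1 was called, the X-linked Eda2r (14.1 and 17.5 against 119.8 and 35.9 CPM), while Cdkn1a was at 245 and 256 against 279 and 332 CPM. Among 24 genes of the integrated stress and unfolded protein responses Nupr1 was higher, and Atf5, Chac1 and Ddit4 lower, the last at 138 and 125 against 5.53 and 17.1 CPM (−3.53, SE 0.48, adjusted p = 0.00109). Ddit4 and Chac1 lost the call with quality weights, and Eda2r and Nupr1 without either Wt library.

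Metabolic lists had few calls, in both directions, where 3.10% of all genes were higher and 4.01% lower. Of 29 glycolysis genes 1 was higher and 2 lower. In glycolysis Pfkp, a phosphofructokinase isoform of ESCs, was higher at 56.2 and 83.1 against 17.0 and 24.6 CPM after 249.9 and 316 and 218 and 268 CPM at day 0, and Pfkl, another isoform, was lower at 103 and 159.8 against 462 and 366 CPM. Ldha was lower at 326 and 408 against 753 and 682 CPM, lost with quality weights. Of 23 cholesterol genes Ebp was higher and Dhcr7 and Stard4 lower with edgeR, and 0 in either direction with quality weights. Of 10 mitochondrially encoded genes mt-Cytb was called higher (34846 and 20025 against 8180.5 and 9545 CPM, adjusted p = 0.0462), with the 2 Spen-/- libraries further apart than the 2 Wt libraries, and between 0 and 4 passed with 1 library left out.

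Partners of SPEN and imprinted genes complete the lists, again beside shares over all genes of 3.10% higher and 4.01% lower. Of 18 partners, Hdac3, the deacetylase that SPEN activates on chromatin (105 and 97.4 against 33.3 and 47.7 CPM, lost with quality weights), and Rbm15b, an adaptor of RNA methylation that binds Xist (22.6 and 21.8 against 0 and 0 CPM, at least 121-fold lower, adjusted p = 0.00109), were lower, and Hnrnpk, Rbm15, Lbr and Wtap were not called. Of 35 imprinted genes Snrpn was higher (699.6 and 1123 against 375 and 411 CPM) and Peg3 (965 and 982 against 2372 and 1949.6 CPM, log2 difference −1.15, SE 0.18, adjusted p = 0.00278), Meg3, Asb4 and Nnat lower. Apart from Peg3, these calls were lost without either Wt library. None of 11 two-cell-like genes was called, and Zscan4a was at 64.2 CPM in 1 Spen-/- library and at 0 in the other.

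The same programmes were then followed from day 0 to day 7 within each genotype. In Wt cells 269 genes rose and 560 fell (1.48% and 3.09%), and in Spen-/- cells 609 rose and 903 fell (3.36% and 4.98%). Of the rises 157 were shared, 58.4% of the Wt and 25.8% of the Spen-/- rises, and of the falls 180, 32.1% and 19.9%. The naive list had 18 of 26 genes that fell in Wt and 10 that fell in Spen-/- cells, and the germline list 14 of 26 and 4, with 1 that rose in Spen-/- cells. Zfp42 fell by 4.47 on the log2 scale in Wt (adjusted p = 2.59e-06) and by 0.79 in Spen-/- cells (adjusted p = 0.0318).

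A direct test of the difference between these changes called 166 genes that ended relatively higher in Spen-/- cells (0.915%) and 198 relatively lower (1.09%), and with quality weights 93 and 17 (0.512% and 0.0937%), of which 89 and 16 were shared with edgeR. From the naive list Dppa2, Dppa4, Dppa5a, Fgf4, Nr0b1, Tcl1, Utf1 and Zfp42 passed, with Zfp42 at 3.68 (SE 0.29, adjusted p = 2.25e-04), and from the germline list Ddx4, Hormad1, Mael, Rhox5, Rpl10l, Stk31, Sycp3, Tex11 and Tuba3a. The 4 contractile genes, Krt8 and Krt18, Pecam1 and Dnmt3l passed in the same direction. In the other direction passed T, Gsc, Twist1 and Bmp4 of the streak list, Cdh2, Fn1, Mmp2 and Vim of the mesenchymal list, and Oas1a of the interferon list. With quality weights Nr0b1, Ddx4, Rhox5, Tuba3a and Tagln lost the call. In the other direction T and Fn1 kept it and the other 7 of those named lost it. For genes with no reads in 1 group the fitted size of the difference depends on the prior count.

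**Figure D4:**
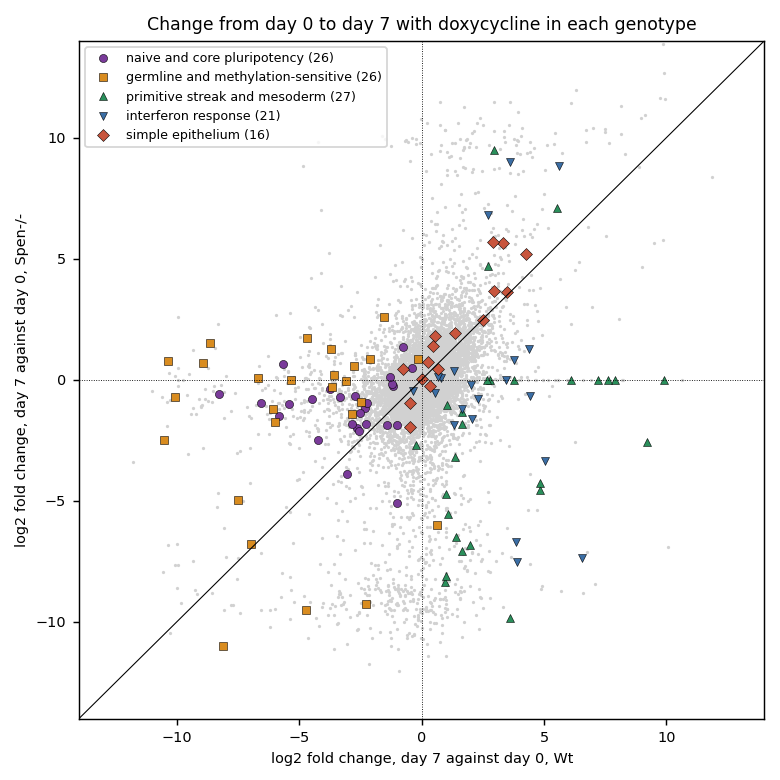
Change from day 0 to day 7 with doxycycline in Wt cells (x axis) and in Spen-/- cells (y axis), both as log2 fold change, with grey points for genes of at least 5 CPM on either day, coloured points for 5 lists and a line where both changes are equal. Naive and germline genes lie mostly above the line, streak and interferon genes mostly below it, and epithelial genes such as Cldn4, at 2.50 and 2.45, on or near it. Genes without reads on 1 day lie far out at fitted values that depend on the prior count, and those without reads on either day lie at 0.

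The X chromosome was over-represented among the higher genes. Of 715 X-linked genes tested on total counts 106 were higher in Spen-/- cells, 14.8%, and 18 lower, 2.52%, against 456 of 17399 autosomal genes higher, 2.62%, and 710 lower, 4.08%. Single autosomes ranged from 1.75% to 4.04% higher and from 2.83% to 5.97% lower. With quality weights 100 X-linked genes were higher and 12 lower. The median log2 difference was 0.53 for X-linked and −0.17 for autosomal genes, and at day 0 with doxycycline it was 0.52 and −0.11. A shift of about this size was already there before differentiation, in cells that had received doxycycline for 4 days. In such cells the paper reports X-linked silencing skewed to the Cast allele in Wt and impaired silencing in Spen-/- cells.

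Reads assigned to an allele showed where the X-linked excess lay. Per 1000000 allelic reads on autosomal genes and with Xist itself left out, the 129 X chromosome gave 18432 and 18763 reads in Wt and 18356 and 17252 in Spen-/- cells, and the Cast X chromosome, which carries the inducible Xist, gave 1596 and 1344 in Wt and 16038 and 15463 in Spen-/- cells. The 129 X was thus at a like level in all 4 libraries, and the Spen-/- Cast X close to the 129 X. Of 263 X-linked genes with more than 20 allelic reads over both replicates of each genotype, 114 had a higher Cast share in Spen-/- cells and 0 a lower one, 43.3%, against 59 and 58 of 7404 autosomal genes, 0.797% and 0.783%.

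The distribution of Cast shares differed between the genotypes. Among X-linked genes with more than 20 allelic reads in a library, 142 and 163 had a Cast share under 0.1 in the Wt libraries, against 22 and 20 in the Spen-/- libraries. Between 0.3 and 0.7 it was 7 and 5 genes in Wt and 145 and 142 in Spen-/- cells, and above 0.7 it was 2 and 3 against 34 and 39. Autosomal shares were also wider in the Spen-/- libraries, where 9.57% and 9.15% of autosomal genes with at least 50 allelic reads lay outside 0.1 to 0.9, against 1.92% to 5.58% in the other libraries, and the part of this spread in the X-linked extremes was not tested.

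The shift ran along the whole chromosome. In 8 windows by distance from Xist the median Wt share lay between 0.0113 (0 to 20 Mb to the distal side, 19 genes) and 0.127 (80 to 105 Mb to the proximal side, 49 genes), and the median Spen-/- share between 0.401 and 0.560. Every window held genes with a higher Cast share in Spen-/- cells, among them 18 of 49 genes in the window farthest on the proximal side, 17 of 32 in the 20 Mb before Xist and 21 of 50 between 40 and 70 Mb on the distal side.

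**Figure D5:**
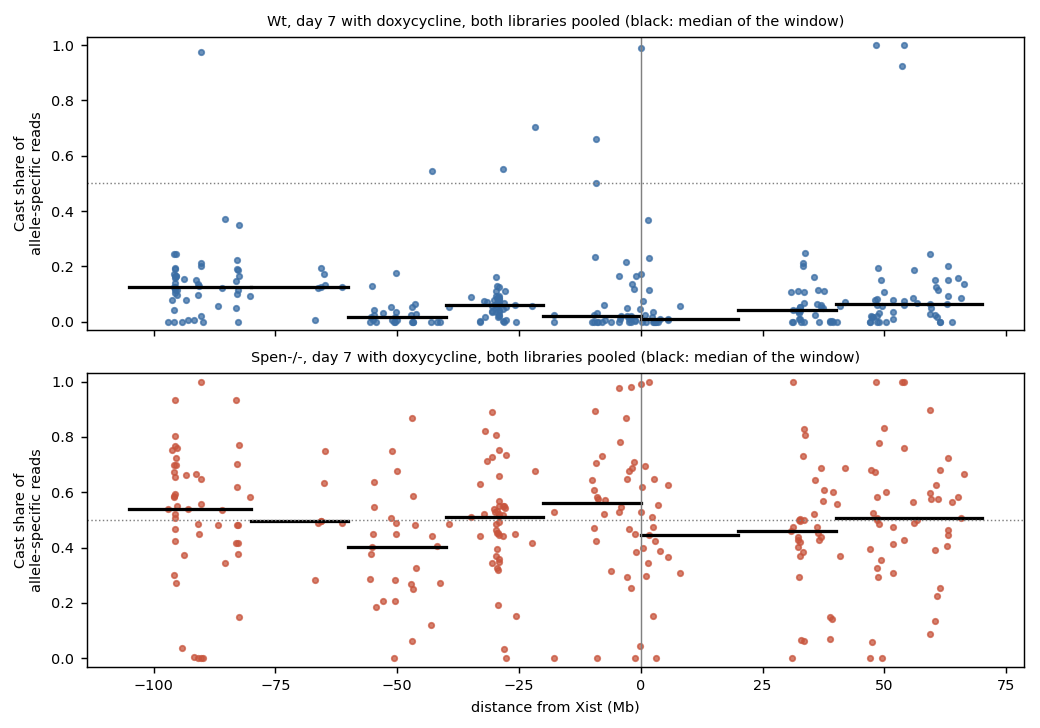
Cast share of allelic reads pooled over both replicates (y axis, from 0 to 1) for X-linked genes by distance from Xist in Mb (x axis), in Wt (first panel) and Spen-/- day 7 cells (second panel), with black lines for window medians. Wt medians stay at or under 0.127, and Spen-/- medians lie between 0.401 and 0.560.

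A few genes show the range, given as Cast reads of all allelic reads in replicates 1 and 2. Dkc1, a telomerase and snoRNA protein gene, had 1 of 246 and 1 of 272 in Wt and 236 of 385 and 377 of 727 in Spen-/- cells (edgeR adjusted p = 7.88e-08 on allelic counts), and Atrx, a chromatin remodeller gene, 6 of 307 and 3 of 236 against 224 of 437 and 95 of 190 (9.34e-07). Hprt, the purine salvage gene, moved less far, from 6 of 380 and 9 of 483 to 149 of 641 and 210 of 630 (2.91e-05), shares of 0.232 and 0.333. Rhox6, which stood out on total counts, went from 18 of 92 and 2 of 69 to 395 of 818 and 546 of 1082 (0.0255), so both alleles carried its reads in Spen-/- cells. Dkc1, Atrx and Hprt were chosen after their values were seen.

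Genes that escape inactivation were less clear, and on total counts 1 of 14 was higher (Pbdc1, at 445 and 425 against 215 and 254 CPM) and 1 lower (Bgn, at 0 and 0 against 11.5 and 8.79 CPM). Of all X-linked genes tested 14.8% were higher and 2.52% lower. Pbdc1 lost the call with quality weights and with any library left out. Ddx3x had 23 of 91 and 8 of 62 in Wt and 23 of 49 and 56 of 73 in Spen-/- cells (adjusted p = 0.0468), and Pbdc1 53 of 213 and 47 of 224 against 103 of 274 and 137 of 265 (0.0403). Kdm5c, a histone demethylase gene, had 19 of 78 and 7 of 56 against 34 of 50 and 10 of 99 (0.749), with the 2 Spen-/- libraries on opposite sides of Wt. Kdm6a had 20 of 61 and 25 of 60 against 12 of 62 and 26 of 48 (0.984).

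At the ends of the Spen-/- range sat genes that the rule named by their share alone, so they are a description. Cask had 0 of 446 and 0 of 345 in Wt and 0 of 21 and 0 of 158 in Spen-/- cells, Hnrnph2 0 of 68 and 0 of 85 against 0 of 69 and 0 of 59, and Rps4x, a ribosomal protein gene with many copies, 1 of 275 and 0 of 224 against 1 of 171 and 0 of 249. Gm14586, Gm14513 and 1810030O07Rik were the others with the lowest shares. For a gene such as Cask or Hnrnph2, with no Cast read in Wt cells either, expression from 1 allele and variants not called on the Cast allele look the same in these counts. By contrast, 1810030O07Rik had 12 of 86 and 4 of 82 Cast reads in Wt and 0 of 54 and 0 of 44 in Spen-/- cells. At the other end, besides Xist itself (207 of 210 and 73 of 73) and Gm1947, Zfp185 went from 4 of 50 and 0 of 60 to 199 of 207 and 56 of 80, Rp2 from 2 of 37 and 2 of 44 to 30 of 31 and 52 of 57, Hmgb3 from 2 of 60 and 0 of 56 to 30 of 43 and 57 of 63, and Syap1 from 18 of 49 and 1 of 29 to 19 of 24 and 24 of 24.

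Allelic reads of imprinted genes gave a check on the autosomes. Of 13 with more than 20 allelic reads in each library, Mirg alone passed, with Cast shares of 0.600 and 0.795 in Wt and 1 and 1 in Spen-/- cells (adjusted p = 0.0189, of 55, 44, 87 and 28 reads). H19 was at 0.613 and 0.581 against 0.591 and 0.544, Peg3 at 0.499 and 0.491 against 0.579 and 0.485 and Snrpn at 0.453 and 0.508 against 0.589 and 0.5, so these 3 were read from both alleles in both genotypes. Airn at 0.456 and 0.592 against 0.757 and 0.905 and Kcnq1ot1 at 0.436 and 0.436 against 0.665 and 0.194 were further apart between genotypes or replicates without passing. Meg3 was at 0.671 and 0.671 against 0.680 and 0.704, on chromosome 12, the autosome with the highest median Cast share in every one of these libraries (0.647 and 0.647 against 0.690 and 0.670).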

How the data were processed

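RNA was isolated from dsRed-sorted cells, at most 1 ng was taken through Smart-seq2 and a Nextera library kit, and 50 bp single-end reads were sequenced. The deposited files hold whole-number counts per Ensembl 98 gene for the 129/Sv allele, the Cast/Ei allele and reads without an allele. As stated in the study's methods and the submitters' processing notes, the authors aligned with HISAT2 2.2.1 to an mm10 genome masked at variant positions, used SAMtools 1.10, split reads by allele with SNPsplit and counted with HTSeq 0.12.4, discarding reads that fit more than 1 gene, which lowers genes with near-identical copies. Between 31.6% and 45.4% of reads fell on no single gene and were left out of all totals.

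Here the 3 columns were summed per gene and all 16 libraries were fitted together in edgeR 4.0.16 (R 4.3.3) with TMM scaling, filterByExpr (minimum count 10, minimum total 15) and the quasi-likelihood test, with Benjamini-Hochberg adjustment over 18150 genes and a threshold of 0.05. The 2 day 7 groups, the change from day 0 in each genotype and the difference of these changes were contrasts of 1 fit. Allelic counts were fitted with 129 and Cast reads as separate observations of a library, for genes with more than 20 allelic reads over both replicates of each genotype. The scripts were tested on simulated data. Alternatives were limma 3.58.1 with sample quality weights, DESeq2 1.42.0 and its size factors, other filters, thinning to the lowest total, a replicate block, the 4 libraries alone, and each day 7 library left out. Same-numbered libraries of the 4 doxycycline groups correlated at 0.00959 to 0.137 in their deviations from group means over 14335 genes, so the numbers were not taken as pairs. Scripts for tables used Python 3.11.15 with pandas 2.3.3, and promoters came from RefSeq tables of GRCm38.p6. With 2 libraries a group, an exact permutation test cannot go below p = 0.333, so no test of single values was run. No 2 files were identical.

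The 30 gene lists and the comparison were chosen with earlier results of these data known. Genes were named by rule: 8 by name, the 12 largest called changes in each direction (mean of at least 20 CPM in the higher group, groups not overlapping, predicted genes left out), called members of each list with up to 4 abundant others, the 6 X-linked genes with the lowest and the 6 with the highest Cast share in Spen-/- cells, and imprinted genes with allelic reads. Others are named as chosen after their values were seen. Some members of the lists are counted but not reported here by name.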

Additional observations from a re-analysis of the deposited data

Results flagged for a closer look

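The change from day 0 to day 7 with doxycycline differed between the genotypes, by a test of the difference itself in the 16-library edgeR fit, for 166 genes that ended relatively higher in Spen-/- cells and 198 that ended relatively lower. With quality weights the counts were 93 and 17. Among the genes named by rule, those with the largest day 7 differences had differences in change, on the log2 scale, of 3.68 for Zfp42, 7.65 for Dppa2 and 6.30 for Fgf4 in the naive network, and of 11.10 for Mael, 6.75 for Hormad1, 6.40 for Stk31, 9.60 for Tex11, 9.33 for Rpl10l, 7.98 for Sohlh2 and 7.21 for Rec114 among germline genes. Platr3 was at 4.64 and Slc28a1 at 10.44. Mael, Tex11, Rpl10l and Slc28a1 had no read in Wt day 7 cells, so their fitted values depend on the prior count and are no bound. The low complexity of both Spen-/- day 7 libraries enters each of these differences, and its part in them was not tested.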

How the results depend on the processing

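Genes higher at day 7 numbered 1241 with DESeq2 and 0 with the 4 libraries alone (edgeR, 1227 at an unadjusted p under 0.05), and 207 to 605 with 1 library left out. Genes lower numbered 297 with quality weights, 1642 with DESeq2, 1699 without a filter, 0 with the 4 alone (2409 unadjusted) and 334 to 1089 with 1 library left out. For the Wt change the counts with quality weights, DESeq2 and no filter were 1172, 665 and 534 higher and 1681, 1242 and 884 lower, and 80 to 107 and 186 to 398 with 1 library left out. For the Spen-/- change they were 282, 1314 and 1040 higher and 84, 1838 and 1708 lower, and 295 to 587 and 482 to 1184. For the difference of the changes they were 93, 542 and 410 higher and 17, 597 and 592 lower, and 83 to 230 and 54 to 536. X-linked genes with a higher Cast share numbered 2 with the 4 alone and 70 to 129 with 1 library left out, and 0 had a lower share in any setting. Autosomal genes with a higher share numbered 0 with the 4 alone, 140 with DESeq2 and 13 to 249 with 1 library left out, and with a lower share 0, 150 and 12 to 212. For X-linked genes the median share of Cast reads was 0.0390 in Wt and 0.488 in Spen-/- cells at more than 10 reads, 0.482 in Spen-/- cells at more than 50 reads and 0.486 with more than 20 in each library, and with 1 library left out 0.0447 to 0.0634 and 0.496 to 0.503. The share of summed Cast reads, Xist included, was 0.118 and 0.465. The X-linked minus autosomal median log2 difference was 0.70, against 0 without a filter and 0.474 to 0.625 with 1 library left out. The cause of these moves was not tested. A replicate block gave 603 higher and 726 lower genes and 111 X-linked genes with a higher Cast share, and since the numbers share no pairing, this is a check only. The sign of Gata6 turned to -0.0111 without a filter, -0.00646 with the 4 alone, −0.17 without Wt replicate 2 and −0.19 without Spen-/- replicate 1, in a range of −0.19 to 0.22 over the libraries left out. Of 124 called genes named in the text, none changed direction. They lost the call in 1 case with DESeq2 size factors, 3 without a filter, 36 with quality weights, 7 with the block, 2 with thinning, 53 and 48 without Wt replicates 1 and 2, 27 and 21 without Spen-/- replicates 1 and 2, and all 124 with the 4 alone. A group left with 1 library is assumed to vary like the other groups. Depth limits weak genes most: at 1 to 5 CPM in Wt, 32.4% of genes had no read in Spen-/- day 7 cells.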
